A study of Homo sapiens with 12 samples.

Results

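The genes described here are the 3 D cyclins (CCND1, CCND2, CCND3) and the 7 inhibitors of cyclin-dependent kinases, CDKN1A to CDKN1C and CDKN2A to CDKN2D. They were taken by name, and every array probe set that carried a single matching symbol was used. Of the 10 genes, 9 had such probe sets, 22 in all, among 19775 genes tested. CDKN2C was not analysed here. CCND2 had a mean signal under 32 in every group, near the array background, so 8 of the 10 genes could be followed. For each gene the probe set with the highest mean was the main one.

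D cyclins are made when growth signals reach a cell, and they switch on the kinases CDK4 and CDK6. These kinases phosphorylate the retinoblastoma protein RB, which then releases E2F factors, and E2F factors turn on the genes of DNA replication. The proteins of the INK4 family (CDKN2A to CDKN2D) bind CDK4 and CDK6 and keep D cyclins off them. The CIP/KIP proteins (CDKN1A, CDKN1B, CDKN1C) bind cyclin and kinase together, block CDK2, and can also help CDK4 assemble with D cyclins. In many tumours this route is altered, by extra D cyclin or by loss of an INK4 gene.

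RNA was measured in cells labelled as the prostate cancer line PC3, cultured in medium with serum. The groups were Wee1 inhibitor II at 2.5 µM together with 17-AAG at 40 nM, Wee1 inhibitor II alone at 2.5 µM, 17-AAG alone at 40 nM, and a control that the labels call untreated and the protocol describes as given vehicle. Wee1 is the kinase that restrains CDK1 before mitosis, and 17-AAG inhibits the chaperone Hsp90, which keeps many kinases, CDK4 among them, folded. Wee1 inhibitor II was given first, 17-AAG followed after 24 h, and cells were collected 48 h after that. Each group had 3 arrays. Control replicate 2, which the submitters removed for weak signal, was left out here, so 2 control arrays and 3 arrays of each treated group were compared.

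The arrays went against the label in several ways. PC3 cells are known to lack the genes CTNNA1 and STAT3, yet CTNNA1 had a signal of 2559 to 5040 and STAT3 of 819 to 1296 on the 11 arrays compared. On control replicate 2 they stood at 1.57 and 7.54. All 7 melanocyte markers measured were above 32 on each of the 11 arrays, with MLANA at 2865 to 9916, against 1 of 7 on control replicate 2. The prostate marker HOXB13 was at most 11.3 on the 11 arrays and 2087 on control replicate 2. Of the 7 prostate and epithelial markers measured, 4 were below 32 on all 11 arrays and 2 above 32 on all 11. The 2 were KRT18, at 453 to 650, and KLK3, at 41.8 to 90.2. On control replicate 2, 5 of the 7 were above 32, with KRT18 at 2238 and KLK3 at 79.9. Pearson's r of log2 signal was at least 0.922 between any pair of the 11, and 0.822 to 0.831 between control replicate 2 and these. The 11 arrays are therefore called by their labelled treatment only. Hsp90 inhibitors usually raise heat shock genes such as DNAJB1 and HSPH1. These had mean signals of 510 and 1894 with 17-AAG, against 1192 and 3213 in control. Of 5 such genes measured, the others were HSPB1, HSP90AA1 and BAG3. Their signals were 2570, 10309 and 1125 with 17-AAG, and 2439, 11024 and 1324 in control. None of these differences passed an adjusted limma p of 0.05 (0.714, 0.63 and 0.145). Whether labels were exchanged was not tested. The gap between the 3' and 5' probe sets of ACTB, a sign of RNA quality, was 0.96 ± 0.05 (log2, SD, n = 3) with both drugs, 0.68 ± 0.09 (n = 3) with Wee1 inhibitor II, 0.96 ± 0.08 (n = 3) with 17-AAG and 0.69 ± 0.03 (n = 2) in control. The summed signal of the 7 melanocyte markers was 49550 to 51082 with both drugs, 29446 to 31812 with Wee1 inhibitor II, 41775 to 47163 with 17-AAG and 34111 to 35328 in control. The sum of 4 fibroblast markers was 773 to 828, 418 to 468, 1774 to 1902 and 1071 to 1218 in the same order, mostly LUM, and COL1A2 was below 32 on all 11 arrays. The sum of 4 blood cell markers was 45.8 to 69.5 on all 11, with 3 of the 4 below 32 throughout. The part of RNA quality or of other cells in the results below was not tested.

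The stretch around a gene's start is where E2F, NF-Y, Sp1 and other factors act, and 4 such windows are shown for members that changed in opposite directions. Windows run from 250 bases before to 50 bases after the start, in RefSeq's tables on build GRCh38.p14. Capitals mark CCAAT, the letters NF-Y binds, or GGGCGG, the Sp1 box, on either strand. CDKN1B and CDKN2A had higher signals after Wee1 inhibitor II than in control, and CDKN2D lower ones with both drugs. CDKN2A has separate starts for its INK4 product and, upstream of it, for ARF, a protein in another reading frame that acts on MDM2.
CDKN1B (chr12:12717118-12717417, plus strand): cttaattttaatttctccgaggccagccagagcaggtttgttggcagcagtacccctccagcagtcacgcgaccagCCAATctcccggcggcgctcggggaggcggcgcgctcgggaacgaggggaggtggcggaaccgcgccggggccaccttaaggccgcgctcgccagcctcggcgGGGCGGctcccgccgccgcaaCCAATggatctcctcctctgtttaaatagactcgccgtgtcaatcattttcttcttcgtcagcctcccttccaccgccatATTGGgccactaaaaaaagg
CDKN2D (chr19:10568930-10569229, minus strand): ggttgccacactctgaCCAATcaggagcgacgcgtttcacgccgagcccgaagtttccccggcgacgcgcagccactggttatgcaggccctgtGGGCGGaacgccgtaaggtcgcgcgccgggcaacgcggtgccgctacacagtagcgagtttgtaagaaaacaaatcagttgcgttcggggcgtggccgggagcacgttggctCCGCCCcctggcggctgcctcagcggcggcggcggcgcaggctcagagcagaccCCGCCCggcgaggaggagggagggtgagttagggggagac
CDKN2A, INK4 start (chr9:21974808-21975107, minus strand): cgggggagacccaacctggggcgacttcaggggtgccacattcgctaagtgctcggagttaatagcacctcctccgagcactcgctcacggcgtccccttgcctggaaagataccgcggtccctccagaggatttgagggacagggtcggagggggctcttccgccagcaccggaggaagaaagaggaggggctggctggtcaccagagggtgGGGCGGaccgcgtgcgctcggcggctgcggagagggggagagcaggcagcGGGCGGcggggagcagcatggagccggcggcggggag
CDKN2A, ARF start (chr9:21995275-21995574, minus strand): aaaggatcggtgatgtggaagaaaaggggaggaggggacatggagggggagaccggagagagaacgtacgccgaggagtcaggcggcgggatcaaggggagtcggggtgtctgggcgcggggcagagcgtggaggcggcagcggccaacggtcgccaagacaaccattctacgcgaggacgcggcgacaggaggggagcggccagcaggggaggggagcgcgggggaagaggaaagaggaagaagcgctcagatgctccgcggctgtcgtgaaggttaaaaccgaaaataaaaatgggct

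The CDKN1B window held CCAAT or its complement 3 times and GGGCGG once, and the CDKN2D window held them 1 and 3 times. Of the CDKN2A windows, the INK4 start held 2 matches to GGGCGG and none to CCAAT, and the ARF start held neither. RefSeq windows were used for 6 of the measured genes, 9 windows in all, and of these 4 held CCAAT and 7 held GGGCGG. Among all 35116 windows 34.6% held CCAAT and 45% held GGGCGG. The E2F words TTTCCCGC, TTTGGCGC and TTTCGCGC were in 0 of the 9 windows and in 2.74% of all windows, on either strand. These matches are letters only and say nothing of binding.

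A gene was called where the adjusted p of limma over all genes was under 0.05, and fold changes are log2 differences of group means with their standard errors. With both drugs, 4 of the 9 genes rose and 2 fell against control, where 16.7% of all genes rose and 11.3% fell. With Wee1 inhibitor II, 5 rose and 2 fell, against 14.5% and 10.3% of all genes. With 17-AAG, 1 rose and 2 fell, against 9.93% and 6.8% of all genes. CDKN1C rose and CCND3 and CDKN2D fell in each of these comparisons, which share the control arrays. The median change of the 9 genes was 0.21, 0.60 and 0.30 (log2) for both drugs, Wee1 inhibitor II and 17-AAG. Over all genes it was 0.11, 0.12 and 0.01.

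Set against 17-AAG alone, both drugs raised 1 of the 9 genes and lowered 2, where 10.9% of all genes rose and 8.43% fell. Against Wee1 inhibitor II alone, both drugs raised 0 and lowered 4, where 7.27% and 6.84% of all genes did so. Wee1 inhibitor II against 17-AAG gave 3 higher and 0 lower, with 10.2% and 8.52% over all genes. The interaction is the effect of Wee1 inhibitor II in the presence of 17-AAG minus its effect without, on the log2 scale. It was called above 0 for 0 of the 9 genes and called below 0 for 4, where 4.82% and 6.97% of all genes were so called. At an unadjusted limma p under 0.05, both drugs against Wee1 inhibitor II gave 0 higher and 6 lower, Wee1 inhibitor II against 17-AAG 5 higher and 0 lower, and the interaction 0 above and 6 below. The share of all genes at that unadjusted p was not counted for these comparisons. These counts are therefore not read as particular to the members.

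**Figure D1:**
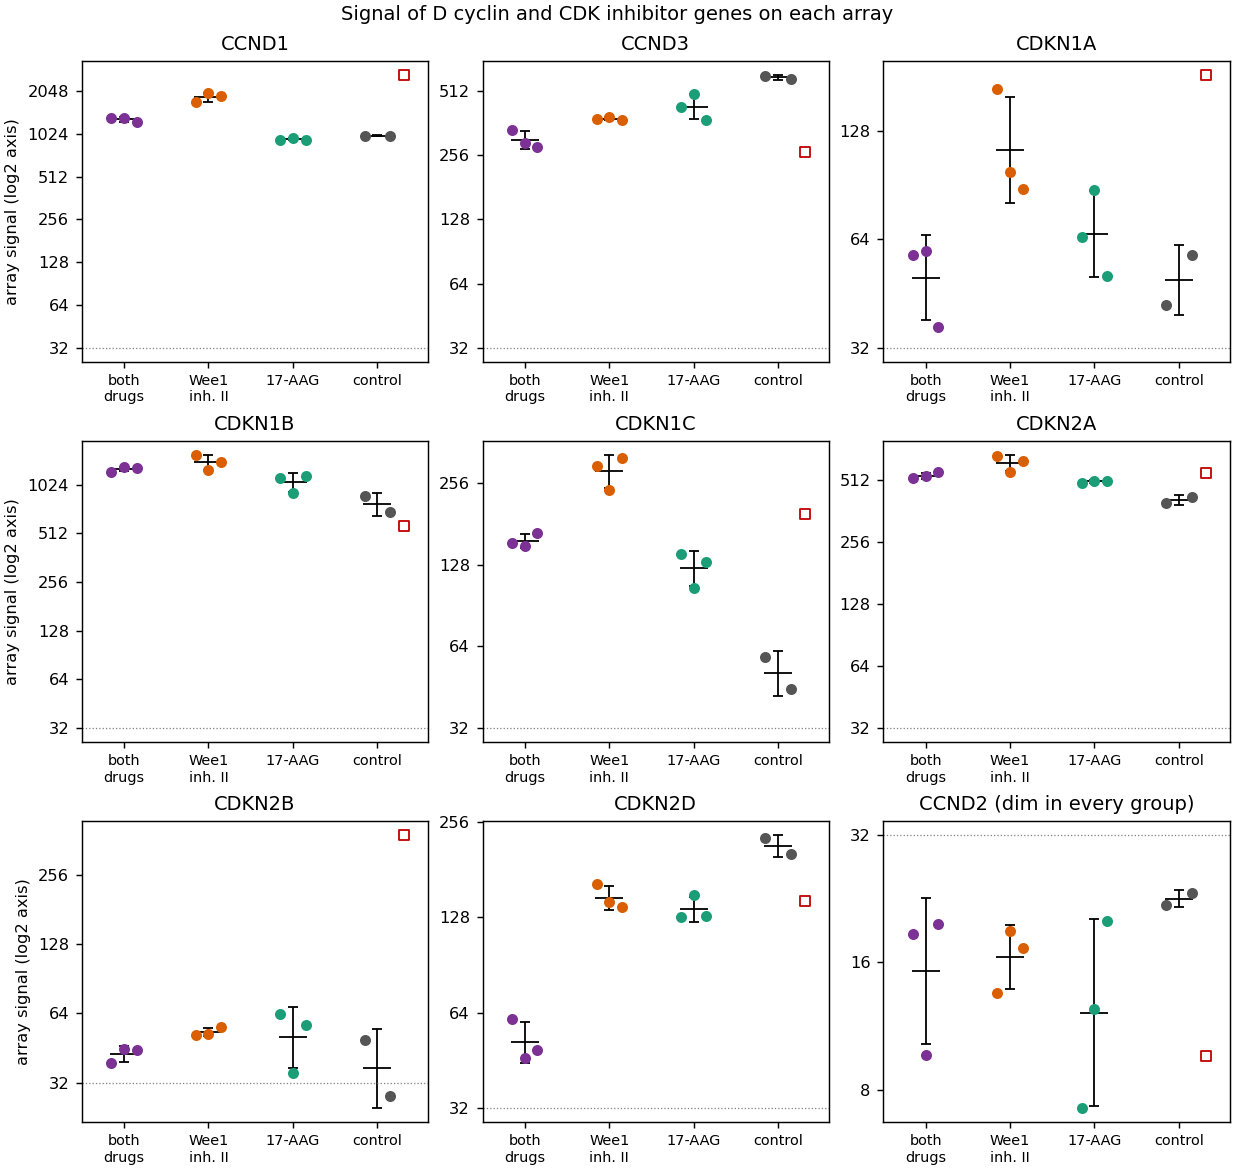
Array signal of each measured gene (log2 axis) by group, with both drugs, Wee1 inhibitor II, 17-AAG and control from left to right. Filled points are the 11 arrays compared, bars the mean and SD of log2 signal, open squares control replicate 2, which is in no mean, and the dotted line a signal of 32. CDKN1C has its lowest points in control, at 44.4 and 58.3, and CDKN2D its lowest with both drugs, at 46.0 to 61.2.

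CCND1, the D cyclin most often amplified in tumours, was higher in cells given Wee1 inhibitor II, by 1.86-fold over control, and was intermediate with both drugs. Its signal was 1321, 1331 and 1240 with both drugs and 1714, 1971 and 1875 with Wee1 inhibitor II. With 17-AAG it was 931, 961 and 927, and in control 991 and 996. No group overlapped another, with Wee1 inhibitor II highest, then both drugs, control and 17-AAG. The log2 change against control was 0.38 ± 0.08 with both drugs (adjusted p = 0.0102) and 0.90 ± 0.08 with Wee1 inhibitor II (adjusted p = 0.000268). With 17-AAG it was -0.08 ± 0.08, which did not pass (adjusted p = 0.616, 95% interval -0.28 to 0.11). Both drugs were 0.51 ± 0.08 lower than Wee1 inhibitor II alone (log2 change -0.51, adjusted p = 0.00292) and 0.46 ± 0.08 higher than 17-AAG alone (adjusted p = 0.0042). Wee1 inhibitor II exceeded 17-AAG by 0.98 ± 0.08 (adjusted p = 0.000112). The second CCND1 probe set gave 0.37 ± 0.15, 0.86 ± 0.15 and -0.05 ± 0.15 against control for both drugs, Wee1 inhibitor II and 17-AAG. With adjustment over all probe sets its rise with Wee1 inhibitor II was called (adjusted p = 0.00617), while both drugs were not called against control (adjusted p = 0.132), 17-AAG (adjusted p = 0.0785) or Wee1 inhibitor II (adjusted p = 0.0599). Its 17-AAG and control arrays overlapped. On the main probe set the rise with both drugs lost its call without control replicate 1 (adjusted p = 0.0562) or replicate 3 (adjusted p = 0.0532). With arrays centred on their medians it was 0.19 over control and 0.26 over 17-AAG, neither called.

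CCND3, the D cyclin prominent in blood and other differentiated tissues, was lower in every treated group than in control. The signal was 336, 291 and 278 with both drugs, and 376, 385 and 374 with Wee1 inhibitor II. It was 431, 492 and 375 with 17-AAG and 603 and 579 in control. Control was apart from all treated arrays and both drugs from all others, while Wee1 inhibitor II and 17-AAG overlapped. With both drugs CCND3 fell by 0.97 ± 0.13 on the log2 scale (adjusted p = 0.000804). With Wee1 inhibitor II it fell by 0.64 ± 0.13 (adjusted p = 0.00781) and with 17-AAG by 0.46 ± 0.13 (adjusted p = 0.0451). Both drugs gave -0.52 ± 0.11 against 17-AAG (adjusted p = 0.0157). Against Wee1 inhibitor II they gave -0.33 ± 0.11, which did not pass (adjusted p = 0.105). The other CCND3 probe set was dim in every group, at 2.71 to 23.6 on the 11 arrays. With the 2 probe sets averaged, CCND3 was not called against control in any treated group. The fall with 17-AAG kept its call only without 17-AAG replicate 2 or both-drug replicate 1, and ranged over -0.55 to -0.36 as arrays were left out. The fall with Wee1 inhibitor II was lost without control replicate 1 (adjusted p = 0.0521), and that of both drugs against 17-AAG without both-drug replicate 2 (adjusted p = 0.0542) or 3 (adjusted p = 0.0587).

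CCND2 had 4 probe sets, all dim. On the main probe set its signal was 18.7, 9.66 and 19.7 with both drugs and 13.6, 19.0 and 17.3 with Wee1 inhibitor II. In the 17-AAG group it was 7.23, 12.4 and 20.0, and in control 21.9 and 23.4. At these levels no order is read from it.

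CDKN1C (p57), the CIP/KIP inhibitor best known as an imprinted gene that limits growth in the embryo, had the largest rise among the measured members in each comparison with control. Its signal was 154, 150 and 168 with both drugs and 294, 242 and 316 with Wee1 inhibitor II. The 17-AAG arrays had 140, 105 and 130, against 58.3 and 44.4 in control. The 4 groups did not overlap. The means were 3.08-fold, 5.55-fold and 2.44-fold the control mean for both drugs, Wee1 inhibitor II and 17-AAG. The control signals were not far above 32, so the sizes of these rises are less certain. The log2 changes were 1.62 ± 0.18 (adjusted p = 0.000319), 2.47 ± 0.18 (adjusted p = 8.83e-05) and 1.29 ± 0.18 (adjusted p = 0.00292). Both drugs lay 0.85 below Wee1 inhibitor II alone (log2 change -0.85 ± 0.16, adjusted p = 0.00911). Against 17-AAG alone both drugs gave 0.34 ± 0.16, which did not pass (adjusted p = 0.195, 95% interval -0.03 to 0.70). Wee1 inhibitor II exceeded 17-AAG by 1.19 ± 0.16 (adjusted p = 0.00156).

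Of the other CDKN1C probe sets, 1 was below 3 on all 11 arrays, and 3 with the suffix x_at, which marks probes that can match other transcripts, were measurable. The 3 gave 1.62 to 2.30 (log2) for Wee1 inhibitor II against control, all called with adjustment over all probe sets. For both drugs they gave 0.94 to 1.78, of which 2 were called, and for 17-AAG 0.61 to 1.49, of which 0 were called and 2 had an unadjusted limma p under 0.05. For both drugs against Wee1 inhibitor II, 0 of the 3 were called and 0 had an unadjusted limma p under 0.05. For Wee1 inhibitor II against 17-AAG 0 were called, and 2 were higher at that unadjusted p. Control signals of these probe sets were 7.13 to 47.3, partly under 32, so their fold changes are less certain than that of the main probe set. No call of CDKN1C's main probe set was lost when any of the 11 arrays was left out.

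**Figure D2:**
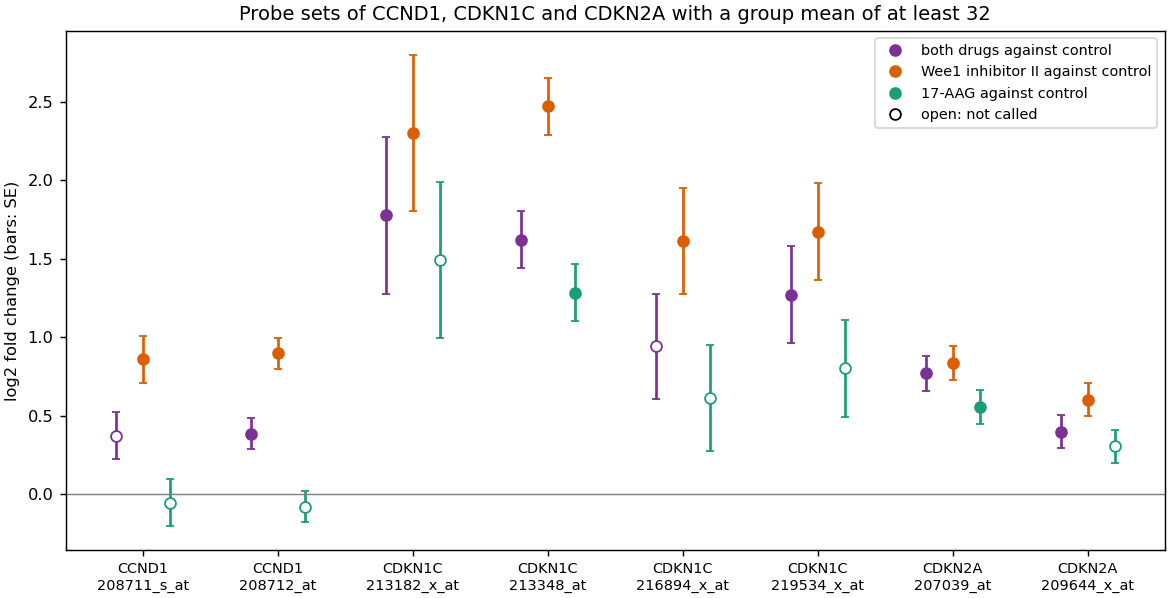
Log2 fold change against control (vertical axis, bars are standard errors) for each probe set of CCND1, CDKN1C and CDKN2A with a group mean of at least 32, fitted with every probe set as its own row. Filled points are called, open points are not, and within each gene the probe sets have the same sign for each treatment.

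CDKN1B (p27), which holds CDK2 inactive in resting cells and is marked for destruction by SKP2, was higher with both drugs and with Wee1 inhibitor II than in control. Its signal was 1233, 1315 and 1295 with both drugs and 1566, 1269 and 1411 with Wee1 inhibitor II. It was 1128, 908 and 1151 with 17-AAG, and 865 and 690 in control. The treated arrays all lay above control, and both drugs overlapped Wee1 inhibitor II but not 17-AAG. The log2 change was 0.73 ± 0.15 with both drugs (adjusted p = 0.00715) and 0.87 ± 0.15 with Wee1 inhibitor II (adjusted p = 0.00394). With 17-AAG it was 0.45 ± 0.15 and not called (adjusted p = 0.0801, 95% interval 0.11 to 0.80). Both drugs differed from Wee1 inhibitor II by -0.14 ± 0.13 (adjusted p = 0.599) and from 17-AAG by 0.28 ± 0.13 (adjusted p = 0.207). The rise with both drugs lost its call without control replicate 3 (0.57, adjusted p = 0.0632), and 17-AAG gained one without 17-AAG replicate 2 (0.56, adjusted p = 0.0377).

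CDKN1A (p21), the inhibitor that p53 raises after DNA damage, was dimmer and more variable. It had a signal of 57.8, 59.5 and 36.6 with both drugs and 167, 98.4 and 88.4 with Wee1 inhibitor II. The 17-AAG arrays gave 65.0, 87.6 and 50.7, and the control arrays 42.2 and 57.9. Wee1 inhibitor II lay above every other array, by little over the highest 17-AAG array, and the other groups overlapped. The log2 change was 0.02 ± 0.36 with both drugs (adjusted p = 0.981), 1.20 ± 0.36 with Wee1 inhibitor II (adjusted p = 0.0425) and 0.42 ± 0.36 with 17-AAG (adjusted p = 0.519). Both drugs against Wee1 inhibitor II alone gave -1.18 ± 0.32 (adjusted p = 0.0451). The call of Wee1 inhibitor II against control was lost without any single array of both drugs 1 or 2, Wee1 inhibitor II 1 or 2, 17-AAG 1, or control 1 or 3, with log2 changes of 0.92 to 1.42 over all arrays left out. That of both drugs against Wee1 inhibitor II remained only without 17-AAG replicate 2, and ranged over -1.35 to -0.90.

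CDKN2A, whose products restrain CDK4 and, through ARF, MDM2, was higher with both drugs and with Wee1 inhibitor II than in control. Its signal was 524, 538 and 561 with both drugs and 672, 564 and 640 with Wee1 inhibitor II. With 17-AAG it was 498, 511 and 511, against 396 and 426 in control. The groups did not overlap, in the order Wee1 inhibitor II, both drugs, 17-AAG and control. The log2 change was 0.40 ± 0.09 with both drugs (adjusted p = 0.0145), 0.60 ± 0.09 with Wee1 inhibitor II (adjusted p = 0.00255) and 0.30 ± 0.09 with 17-AAG (adjusted p = 0.0656, not called). Wee1 inhibitor II against 17-AAG gave 0.30 ± 0.08 (adjusted p = 0.0432), a call that remained only without Wee1 inhibitor II replicate 2 as arrays were left out (0.24 to 0.37). The rise with both drugs was lost without control replicate 1 (0.34, adjusted p = 0.0979), and 17-AAG against control gained a call without Wee1 inhibitor II replicate 2 (adjusted p = 0.0437). With arrays centred on their medians CDKN2A stood 0.20 (both drugs) and 0.37 (Wee1 inhibitor II) over control, and Wee1 inhibitor II 0.06 over 17-AAG, none of them called.

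The main CDKN2A probe set is again of the x_at kind. The second, which lacks that suffix, had a signal of 239, 263 and 229 with both drugs, 250, 238 and 279 with Wee1 inhibitor II, 211, 212 and 207 with 17-AAG, and 147 and 139 in control. With adjustment over all probe sets it was higher in each treated group, by 0.77 ± 0.11 (adjusted p = 0.00179), 0.83 ± 0.11 (adjusted p = 0.00183) and 0.56 ± 0.11 (adjusted p = 0.0172). The other probe set was under 9 on all 11 arrays. Which of the INK4 and ARF transcripts each probe set reads was not established here.

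CDKN2B (p15), the neighbour of CDKN2A that TGF-beta signals raise, was near the background. Its signal was 39.0, 45.0 and 44.5 with both drugs, 51.7, 52.0 and 55.9 with Wee1 inhibitor II, 63.3, 35.4 and 56.9 with 17-AAG, and 48.9 and 27.9 in control. No comparison was called, and the 95% intervals against control reached from -0.45 to 0.87 with both drugs, -0.14 to 1.18 with Wee1 inhibitor II and -0.21 to 1.10 with 17-AAG. Changes of the size seen for CDKN2A lie inside these intervals.

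CDKN2D (p19), the INK4 inhibitor whose transcript is known to vary through the cell cycle, had the largest fall among the measured members. Its signal was 61.2, 46.0 and 48.7 with both drugs and 163, 143 and 138 with Wee1 inhibitor II. It was 128, 151 and 130 with 17-AAG, and 228 and 203 in control. Both drugs lay under all other arrays and control above all others, and the single drugs overlapped. The both-drug signals were not far above 32, so the size of a fall to them is less certain. CDKN2D was 4.17-fold lower with both drugs than in control, a log2 change of -2.06 ± 0.15 (adjusted p = 5.19e-05). It fell by 0.54 ± 0.15 with Wee1 inhibitor II (adjusted p = 0.031) and by 0.66 ± 0.15 with 17-AAG (adjusted p = 0.0194). Both drugs against Wee1 inhibitor II gave -1.52 ± 0.13 (adjusted p = 0.000203) and against 17-AAG -1.40 ± 0.13 (adjusted p = 0.000343). These 3 differences of the both-drug group kept their calls whichever array was left out. With the 2 CDKN2D probe sets averaged, none of the 3 was called in limma. The adjusted p was 0.31 against control, 0.593 against Wee1 inhibitor II and 0.498 against 17-AAG.

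The smaller falls of CDKN2D rested on fewer arrays. That with Wee1 inhibitor II was lost without control replicate 1 (-0.46, adjusted p = 0.171) or 3 (-0.62, adjusted p = 0.0747), or Wee1 inhibitor II replicate 2 (-0.52, adjusted p = 0.0774) or 3 (-0.49, adjusted p = 0.0876). That with 17-AAG was lost without control replicate 1 (-0.58, adjusted p = 0.123) or 3 (-0.75, adjusted p = 0.0606), or 17-AAG replicate 1 (-0.62, adjusted p = 0.0633) or 3 (-0.63, adjusted p = 0.062). The other CDKN2D probe set was dim in every group, and averaging it with the main one ended the calls of these smaller falls too.

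**Figure D3:**
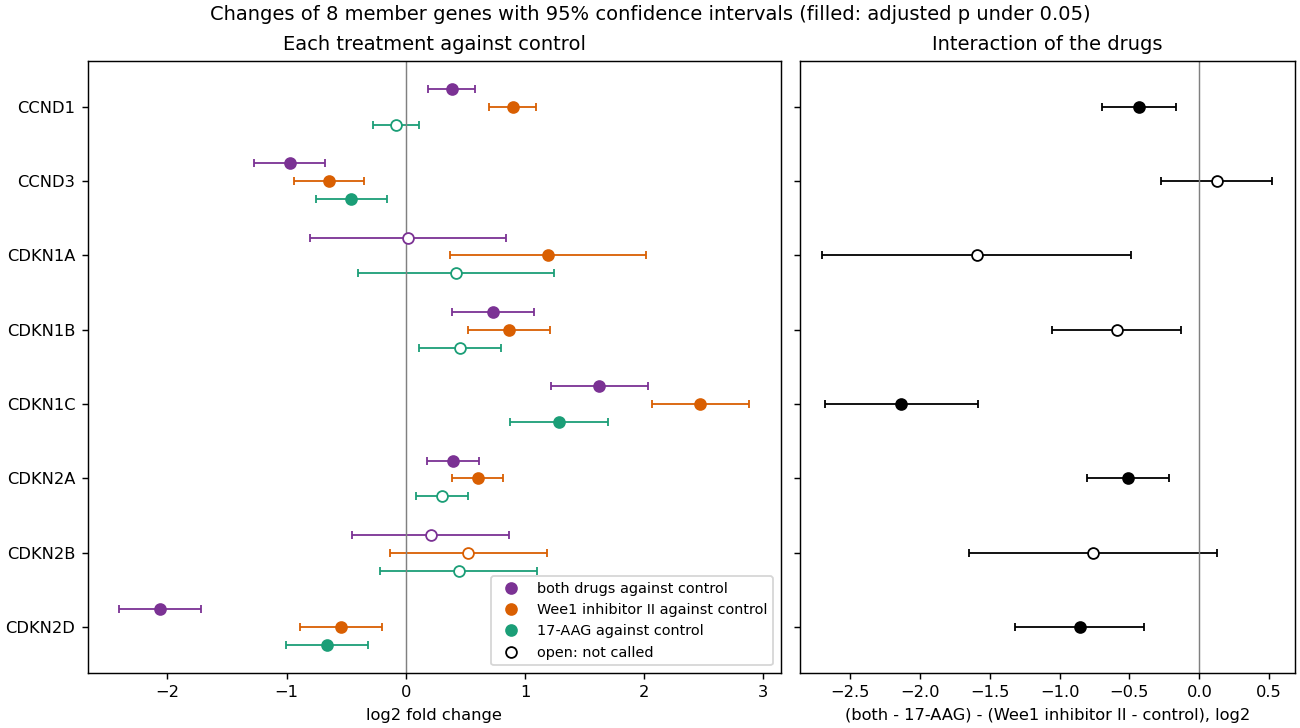
Log2 fold changes of the 8 measurable genes against control (left) and the interaction of the drugs (right), with 95% intervals of the limma fit. Filled points passed an adjusted p of 0.05, open points did not. CDKN2D with both drugs stands at -2.06 and CDKN1C with Wee1 inhibitor II at 2.47. The interaction was called below 0 for 4 of the 8 genes, where 6.97% of all genes were so called. Of the 4, only CDKN1C kept its call without each array in turn.

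The interaction asks whether the drugs together gave more or less than the sum of their separate log2 changes. CDKN1C had -2.13 ± 0.24 (adjusted p = 0.00191), since each drug alone raised it and both together gave less than Wee1 inhibitor II alone. This call held without each of the 11 arrays in turn. It is a call of the main CDKN1C probe set. Of the 3 measurable x_at probe sets of CDKN1C, 0 were called for the interaction. All 3 were below 0 at an unadjusted limma p under 0.05. CDKN2D had -0.86 ± 0.20 (adjusted p = 0.0299), a fall with both drugs beyond the sum of the single falls. CDKN2A had -0.51 ± 0.13 (adjusted p = 0.0381) and CCND1 -0.43 ± 0.11 (adjusted p = 0.0459). As arrays were left out, CDKN2D kept its call only without both-drug replicate 1 (-0.98 to -0.77), CDKN2A only without Wee1 inhibitor II replicate 2 (-0.58 to -0.45), and CCND1 only without Wee1 inhibitor II replicate 1 (-0.49 to -0.39). None of these 3 calls remained with all probe sets tested separately or with the probe sets of a gene averaged. CCND3 had 0.12 ± 0.17 (adjusted p = 0.73), an interval of -0.27 to 0.52. CDKN1A had -1.59 ± 0.48 (adjusted p = 0.072) and CDKN1B -0.59 ± 0.20 (adjusted p = 0.105).

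Kinases and cyclins of the CDK4, CDK6 and CDK2 step, with RB and E2F family genes, were mostly lower or not called. Of 23 measured, 14 fell and 2 rose with both drugs, 10 fell and 2 rose with Wee1 inhibitor II, and 10 fell and 2 rose with 17-AAG, beside the shares of all genes given above. With arrays centred on their medians the list had 1 up and 16 down, 1 up and 12 down, and 1 up and 8 down. E2F8, a repressor among the E2F factors, had mean signals of 44.5 with both drugs, 315 with Wee1 inhibitor II, 383 with 17-AAG and 532 in control, and E2F7, its close relative, had 94.2, 281, 391 and 507. Cyclin E2 (CCNE2), the partner of CDK2 at the start of S phase, had 110, 335, 402 and 930. Cyclin A2 (CCNA2), which drives S phase, had 294, 899, 700 and 1164. All 4 fell in every comparison with control. CDK4 itself, named after its values were seen, had 2270, 2070, 1982 and 3109 and fell by 0.45, 0.59 and 0.65 (log2) with both drugs, Wee1 inhibitor II and 17-AAG. CDK6, likewise, had 288, 389, 354 and 372 and was not called against control.

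Genes that E2F factors drive at the start of S phase moved in the direction of CDKN2D. Of 25 measured, 25 fell with both drugs, 19 with Wee1 inhibitor II and 14 with 17-AAG, beside 11.3%, 10.3% and 6.8% of all genes. With arrays centred on their medians 25, 23 and 10 fell, and with quantile normalisation 24, 18 and 14. In limma 0 of the 25 rose in each comparison with control, at an adjusted or at an unadjusted p under 0.05, beside 16.7%, 14.5% and 9.93% of all genes called higher. The median change of the list was -1.61, -0.57 and -0.41 (log2). RRM2, a subunit of the enzyme that makes deoxynucleotides, had mean signals of 330 with both drugs, 2190 with Wee1 inhibitor II, 2120 with 17-AAG and 4666 in control. TYMS, which makes thymidylate, had 1277, 5151, 6155 and 7349. GINS1, a part of the replicative helicase, had 166, 432, 652 and 832, and the thymidine kinase TK1 had 302, 984, 959 and 1270. RRM2, GINS1 and TK1 fell in each comparison (TK1 with Wee1 inhibitor II was not called after quantile normalisation, -0.31, adjusted p = 0.0701), and TYMS fell with both drugs and with Wee1 inhibitor II (with 17-AAG -0.26 ± 0.11, adjusted p = 0.171).

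**Figure D4:**
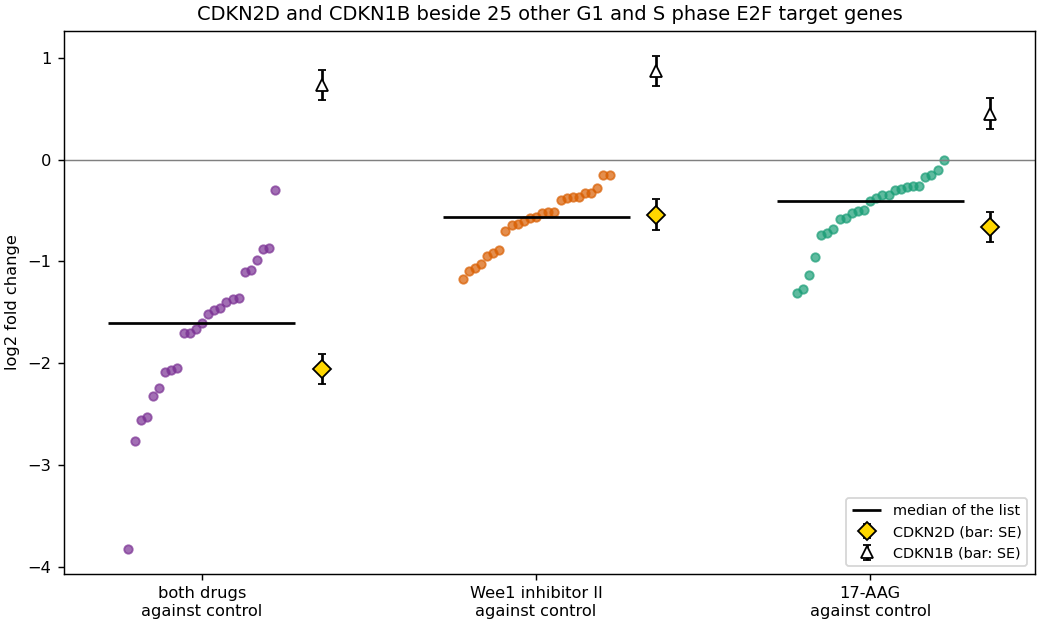
Log2 fold change against control of 25 other G1 and S phase E2F target genes (dots, sorted within each comparison, black line the median) beside CDKN2D (diamond) and CDKN1B (triangle) with standard errors. The medians are -1.61, -0.57 and -0.41, CDKN2D stands at -2.06, -0.54 and -0.66, and CDKN1B at 0.73, 0.87 and 0.45 for both drugs, Wee1 inhibitor II and 17-AAG.

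Of 26 genes for the assembly, turnover and localisation of D cyclins and CIP/KIP proteins, 5 rose and 6 fell with both drugs, 4 rose and 5 fell with Wee1 inhibitor II, and 5 rose and 3 fell with 17-AAG. Of all genes 16.7% rose and 11.3% fell, 14.5% rose and 10.3% fell, and 9.93% rose and 6.8% fell in the same comparisons. With arrays centred on their medians the list had 2 up and 6 down, 0 up and 6 down, and 2 up and 1 down. SKP2, which tags p27 for destruction, had 868, 962, 1028 and 1896 for both drugs, Wee1 inhibitor II, 17-AAG and control, and fell in each comparison. Its cofactor CKS1B had 1371, 3032, 2749 and 2959 and fell with both drugs (log2 change -1.11 ± 0.11, adjusted p = 0.000188). DTL, which directs p21 to destruction in S phase, had 303, 738, 961 and 1261 and fell in each comparison. TRIM62, a ubiquitin ligase, had 99.7, 83.3, 75.5 and 66.4 and rose with both drugs and with Wee1 inhibitor II, the second of which was not called with centred arrays (0.10, adjusted p = 0.59).

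Among 22 measured p53 target genes other than CDKN1A, 7 rose and 7 fell with both drugs, 4 rose and 4 fell with Wee1 inhibitor II, and 4 rose and 4 fell with 17-AAG, beside the same shares of all genes. Centred arrays gave 2 up and 8 down, 3 up and 5 down, and 3 up and 3 down. Of all genes called with centred arrays 40.8%, 33.4% and 63.7% were higher. MDM2, the ligase that degrades p53, had 254, 261, 335 and 532 in the same order of groups and fell in each comparison. TP53INP1, a promoter of cell death and autophagy, had 168, 108, 121 and 52.8 and rose in each, as did SESN2, a stress sensor that is also an ATF4 target, with 133, 161, 162 and 26.7. DDB2, which recognises DNA lesions, had 174, 406, 299 and 356 and fell with both drugs (log2 change -1.03 ± 0.10, adjusted p = 0.000199).

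Of 19 measured regulators and neighbours of the INK4 locus, 5 rose and 6 fell with both drugs, 3 rose and 5 fell with Wee1 inhibitor II, and 3 rose and 5 fell with 17-AAG, beside 16.7% and 11.3%, 14.5% and 10.3%, and 9.93% and 6.8% of all genes. Centred arrays gave 0 up and 6 down, 1 up and 6 down, and 0 up and 4 down. Of all genes called with centred arrays 40.8%, 33.4% and 63.7% were higher. EZH2 and EED, subunits of the Polycomb complex that silences CDKN2A in dividing cells, fell in each comparison. EZH2 had 246, 540, 556 and 752 for both drugs, Wee1 inhibitor II, 17-AAG and control, and EED 615, 707, 682 and 1281. CBX7, a Polycomb reader that also represses the locus, rose in each, with 141, 179, 135 and 87.4. With centred arrays its change was 0.49 with both drugs (adjusted p = 0.0801) and 0.64 with 17-AAG (adjusted p = 0.0541), against 0.69 and 0.63 as deposited, and with quantile normalisation 0.52 (adjusted p = 0.0582) and 0.54 (adjusted p = 0.0695), while Wee1 inhibitor II kept its call under both. ID1, a partner of ETS factors that holds down CDKN2A, had 47.2, 148, 44.8 and 460 and fell in each.

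Of the transcription factors that act on the member genes, more rose than fell against control. Of 34 measured, 12 rose and 1 fell with both drugs. With Wee1 inhibitor II 20 rose and 1 fell, and with 17-AAG 12 rose and 1 fell. Rises also outnumbered falls over all genes, at 16.7% and 11.3%, 14.5% and 10.3%, and 9.93% and 6.8% in the same order. With arrays centred on their medians the list had 7 up and 3 down, 11 up and 1 down, and 9 up and 1 down. Of all genes called with centred arrays 40.8%, 33.4% and 63.7% were higher. KLF4, which raises CDKN1A, had 153 with both drugs, 763 with Wee1 inhibitor II, 116 with 17-AAG and 54.7 in control. CEBPD, a factor of stress and growth arrest, had 630, 2074, 440 and 209, and ATF4, the factor of the amino acid response, had 8002, 9895, 7393 and 4057. All 3 rose in each comparison. FOSL1, an AP-1 subunit that acts on CCND1, had 52.8, 344, 63.0 and 170, with a rise under Wee1 inhibitor II and falls with both drugs and 17-AAG. The interaction was called below 0 for 14 of the 34 and called above 0 for 1, where 6.97% and 4.82% of all genes were so called.

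The genes most like each member were taken by Pearson's r of log2 signal over the 11 arrays, among genes with a mean signal of at least 100, as a description in which all values share the same arrays. CCND1 was most like SERPINE2 (r = 0.984), BTF3L4 (r = 0.983) and COL5A3 (r = 0.980). CCND3 was most like MAP2K1 (r = 0.982), and then L3HYPDH and HSPA14. CDKN1B lay nearest to TUBE1 (r = 0.978), LARS1 and LPP, and CDKN1C to CARS1 (r = 0.985), FZD2 and TSC22D3. CDKN2A was most like LOC100996740 (r = 0.987), IFI16 and NUAK1. CDKN2D was most like PLK4 (r = 0.985), which starts centriole duplication, RFC2, a loader of the replication clamp, and RRM2.

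On control replicate 2 several members were outside the range of the other arrays. CCND1 had a signal of 2665 there, CDKN1A 183 and CDKN2B 381, each above all 11. CCND3 at 263 and CDKN1B at 571 were below all 11. Included among the controls, it left 2 calls with both drugs (CDKN1B 0.87, CDKN2D -1.87), 2 with Wee1 inhibitor II (CDKN1B 1.01, CDKN1C 1.82) and 0 with 17-AAG, and turned the CCND1 change with both drugs to -0.090.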

How the data were processed

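Biotin-labelled RNA (100 ng per sample) was hybridised to Affymetrix arrays, per the labels' protocols. The deposited values are linear intensity values, 1 per probe set and array, with Partek 6.5 and RMA listed in the submitters' processing notes. Which program made these values, and how background was treated, is not given in the sources used here. On every array the 2% trimmed mean was 150, and medians on the 11 arrays compared were 17.7 to 23.1, so the values were taken to log2 without further normalisation. Array data have no read depth, and 2 or 3 arrays per group limit the precision. Nothing says that replicates were separate cultures, so p-values reflect no more than the spread among these arrays, which could be technical in origin.

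Of 54675 probe sets, 41091 carried 1 gene symbol in the platform annotation, 1801 carried several and 62 were array controls. Symbols were updated by gene ID through RefSeq's table (GRCh38.p14), in which 42 were not found. For each of the 19775 genes the probe set brightest on average over the 11 arrays was kept. limma 3.58.1 in R 4.3.3 (lmFit and eBayes) was fitted with a mean per group, 7 residual degrees of freedom and no block. Adjustment was by Benjamini and Hochberg across every gene tested. The procedure was tested on simulated data. Replicate numbers are shared across groups, and deviations from group means correlated above 0.1 in 0 of 15 same-numbered pairs (r -0.14 to 0.10), so they were not treated as pairs.

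All measured members are reported. Up to 4 genes were named from each of 6 lists, those with the smallest adjusted p against control, and 3 like genes per bright, called member. The members and lists were chosen with earlier results of these data known. Alternatives were control replicate 2 included, array weights, a replicate block, quantile normalisation, trended and robust empirical Bayes, median centring, the dimmest 40% of genes left out, signals below 32 set to 32, the probe sets of a gene averaged, all probe sets tested separately, only the arrays compared, a 2-fold minimum, an adjusted p under 0.01, and each array left out. No signal was read where a gene had no single-symbol probe set in the annotation used.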

Additional observations from a re-analysis of the deposited data

Results flagged for a closer look

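The drugs together differed from the sum of their separate effects for 4 members, by the interaction term of the limma fit. The log2 values were -0.43 for CCND1, -2.13 for CDKN1C, -0.51 for CDKN2A and -0.86 for CDKN2D, and only that of CDKN1C kept its call without each of the 11 arrays.

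Control replicate 2, which is in no comparison of the main fit, held 3 members above the highest of the other 11 arrays. Its signals were 2665 for CCND1, 183 for CDKN1A and 381 for CDKN2B.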

How the results depend on the processing

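Of 30 calls among the members, 16 held when any of the 11 arrays was left out, and 1, CDKN1C with Wee1 inhibitor II against control, held under every alternative run. With control replicate 2 included, CCND1 with both drugs against control turned to -0.090 and its interaction to 0.042. The numbers of members called in the main fit were 6 (both drugs against control), 7 (Wee1 inhibitor II against control), 3 (17-AAG against control), 4 (both drugs against Wee1 inhibitor II), 3 (both drugs against 17-AAG), 3 (Wee1 inhibitor II against 17-AAG) and 4 (interaction). In that order, a 2-fold minimum gave 2, 2, 1, 2, 1, 1 and 1, and control replicate 2 included gave 2, 2, 0, 1, 1, 0 and 0. The counts over all genes moved as well. In the same order the main fit called 5539, 4922, 3309, 2791, 3816, 3696 and 2331 of all genes. The 2-fold minimum left 1982, 1468, 710, 734, 882, 911 and 895 of them. An adjusted p under 0.01 gave 1 for 17-AAG against control and 1 for the interaction. Averaging the probe sets of a gene, which mixes in dim ones, gave 4 for Wee1 inhibitor II against control and 1 each for both drugs against either single drug and for the interaction. A fit of only the arrays compared, with fewer residual degrees of freedom, gave 3 for Wee1 inhibitor II and 0 for 17-AAG against control. Trended and robust empirical Bayes gave 5 for 17-AAG against control and 5 for Wee1 inhibitor II against 17-AAG, and leaving out the dimmest 40% of genes gave 5 for 17-AAG against control. Over all genes the trended fit called 4375 and 4619 in these 2 comparisons. Without the dimmest 40%, 4431 genes were called for 17-AAG against control. For the interaction, median centring, all probe sets tested separately and the replicate block gave 1 each. Leaving out single arrays gave 4 to 6, 4 to 7, 1 to 4, 3 to 4, 2 to 3, 2 to 3 and 1 to 2, and the 4 of Wee1 inhibitor II against control came without control replicate 1. Median centring shifted all genes by -0.20 (both drugs) and -0.23 (Wee1 inhibitor II) on the log2 scale against control, and by -0.21 and -0.24 against 17-AAG. It ended 11 of the 30 calls among the members and reversed none. Beside the CCND1 and CDKN2A losses given above, these were CCND3 with 17-AAG against control (-0.45, adjusted p = 0.136), CDKN1A with Wee1 inhibitor II against control (0.97, adjusted p = 0.0918) and with both drugs against Wee1 inhibitor II (-1.14, adjusted p = 0.059), and the interactions of CCND1, CDKN2A and CDKN2D. Of all called genes it gave 40.8%, 33.4%, 25.2% and 21.7% as higher in these comparisons, where the values as deposited gave 59.7%, 58.5%, 56.3% and 54.4%. With 17-AAG, E2F7 (-0.37), DTL (-0.38), EZH2 (-0.43), GINS1 (-0.34) and TK1 (-0.40) were not called after centring, with log2 changes close to those as deposited (-0.38, -0.39, -0.43, -0.35 and -0.41). Over all genes, 3309 were called for 17-AAG against control, 480 with control replicate 2 included and 0 in a limma fit of only the arrays compared, in which 4816 had an unadjusted p under 0.05. The interaction called 2331 genes, 119 with control replicate 2 included and 1483 with the replicate block. The replicate block ended 8 calls among the members and reversed none. No other background correction was run, since the values hold no probe-level signal, and the interaction has no fit of only the arrays compared.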
